A study of Mus musculus with 7 samples.

Results

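The SR and hnRNP splicing regulators are the RNA-binding proteins that decide which splice sites of a pre-mRNA are used. Genes were taken by symbol from the LLC1 count table: those starting with Srsf and a digit, Hnrn, Tra2, Ptbp, Celf, Mbnl or Rbfox. The rule found 48 of the 24419 genes in the table, of which 11 are Srsf, 2 Tra2, 20 Hnrnp, 3 Ptbp, 6 Celf, 3 Mbnl and 3 Rbfox genes. LLC1 is a mouse Lewis lung carcinoma line, kept here in serum-containing DMEM. Polyadenylated RNA was sequenced from 3 libraries of LLC1 cells in which Ddx54 had been knocked down with an shRNA and from 4 libraries labelled wild-type for Ddx54. The sources used here name no control shRNA in the wild-type libraries, so the effect of carrying a construct and that of losing Ddx54 cannot be told apart. Ddx54 encodes a nucleolar DEAD-box RNA helicase, and the comparison asks which transcripts of the tumour cells differ when it is lowered.

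SR proteins carry RNA recognition motifs and a tail rich in arginine and serine. They bind exons, recruit the spliceosome and mostly promote exon inclusion, and their kinases set where they sit in the nucleus. The hnRNP proteins coat nascent transcripts and often, though not always, repress the exons near their sites. Many genes of both groups control their own level by splicing a poison exon into their mRNA, which sends the transcript to nonsense-mediated decay. Ptbp, Celf, Mbnl and Rbfox proteins are regulators best known from neurons and muscle, where switches between them change exon choice during development. Gene counts add up all isoforms of a gene, so poison-exon transcripts and productive mRNA are not separated in any value here.

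Total counts were 14987324 to 17702932 in knockdown and 15293346 to 18673395 in wild-type libraries. Ddx54 was at 45.9, 39.2 and 45.8 CPM in the knockdown libraries, against 80.4, 82.5, 78.6 and 83.1 CPM in the wild-type libraries (log2 fold change -0.90, SE 0.0964, adjusted p = 6.55e-09), and no library went against its label. CPM is the depth-scaled count, with TMM library factors, log2 fold changes are knockdown over wild-type, and adjusted p-values come from edgeR's quasi-likelihood test over all tested genes, with a threshold of 0.05. The labels do not say that replicates were separate cultures, so these p-values measure the spread between the libraries, which may be technical. Of 11594 tested genes, 14.1% were higher and 15.3% lower in knockdown, and the median log2 fold change was 0.001. Reads of Rn45s, which encodes the ribosomal RNA precursor, made up 8.53 ± 0.555% of counts in knockdown and 11.6 ± 0.833% in wild-type (SD, n = 3 and 4). Of the markers of lung epithelium, leukocytes and endothelium, 12 in all, each list summed to less than 2 CPM in every library, and Nkx2-1, Cd3e and Cdh5 had no count. Epithelial keratins and adhesion genes, 5 in all, summed to 148 to 168 CPM in knockdown and 238 to 248 CPM in wild-type, with Epcam and Cdh1 near 0 and the keratins Krt8, Krt18 and Krt19 detected. Fibroblast markers, 5 in all, summed to 29.8 to 33.9 CPM in knockdown and 25.1 to 31.7 CPM in wild-type. Krt18 averaged 132 ± 4.01 CPM in knockdown and 217 ± 4.78 CPM in wild-type libraries (log2 fold change -0.72, adjusted p = 4.62e-10). Krt19 averaged 1.08 ± 0.544 CPM in knockdown and 4.38 ± 0.490 CPM in wild-type libraries (log2 fold change -2.03, adjusted p = 0.000812), and Krt8 did not pass (log2 fold change 0.22, adjusted p = 0.373). The part of the keratin differences in the results below was not tested.

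The splicing regulators leaned upward in knockdown cells. Of the 48 genes, 43 passed the low-count filter, 22 were higher and 2 were lower, and 19 did not pass the test. In either direction, 29.4% of all tested genes passed. The share that was higher, 51.2% of the tested genes of the group, stood beside 14.1% of all tested genes, and the share that was lower, 4.65%, beside 15.3%. Passing also depends on how many counts a gene has, and here and below these shares were not matched for count level. The median log2 fold change of the 43 was 0.23, against 0.001 over all tested genes, and single values ran from -0.43 for Hnrnpul1 to 1.07 for Hnrnph2. Knockdown and wild-type ranges were fully separate for 20 genes that were higher and 3 that were lower, where 17.5% of all tested genes were separate and higher and 17.6% separate and lower. All 48 together summed to 12173, 12303 and 12329 CPM in the knockdown libraries, against 10326, 10133, 10762 and 10391 CPM in the wild-type libraries. Each knockdown sum lay above every wild-type sum. In bulk RNA a change in the RNA of each cell and a change in which cells are present cannot be told apart. The same 22 and 2 genes passed with Rn45s left out of the table. Transcripts of the group were poor in G and C, with a median of 43.6% against 49.6% over tested genes. Of 4 equal bins of tested genes by GC, the lowest had 18.2% higher in knockdown and the highest 9.51%. When fold changes were corrected for transcript GC and length, 19 of the 22 were still higher and the median was 0.15.

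**Figure D1:**
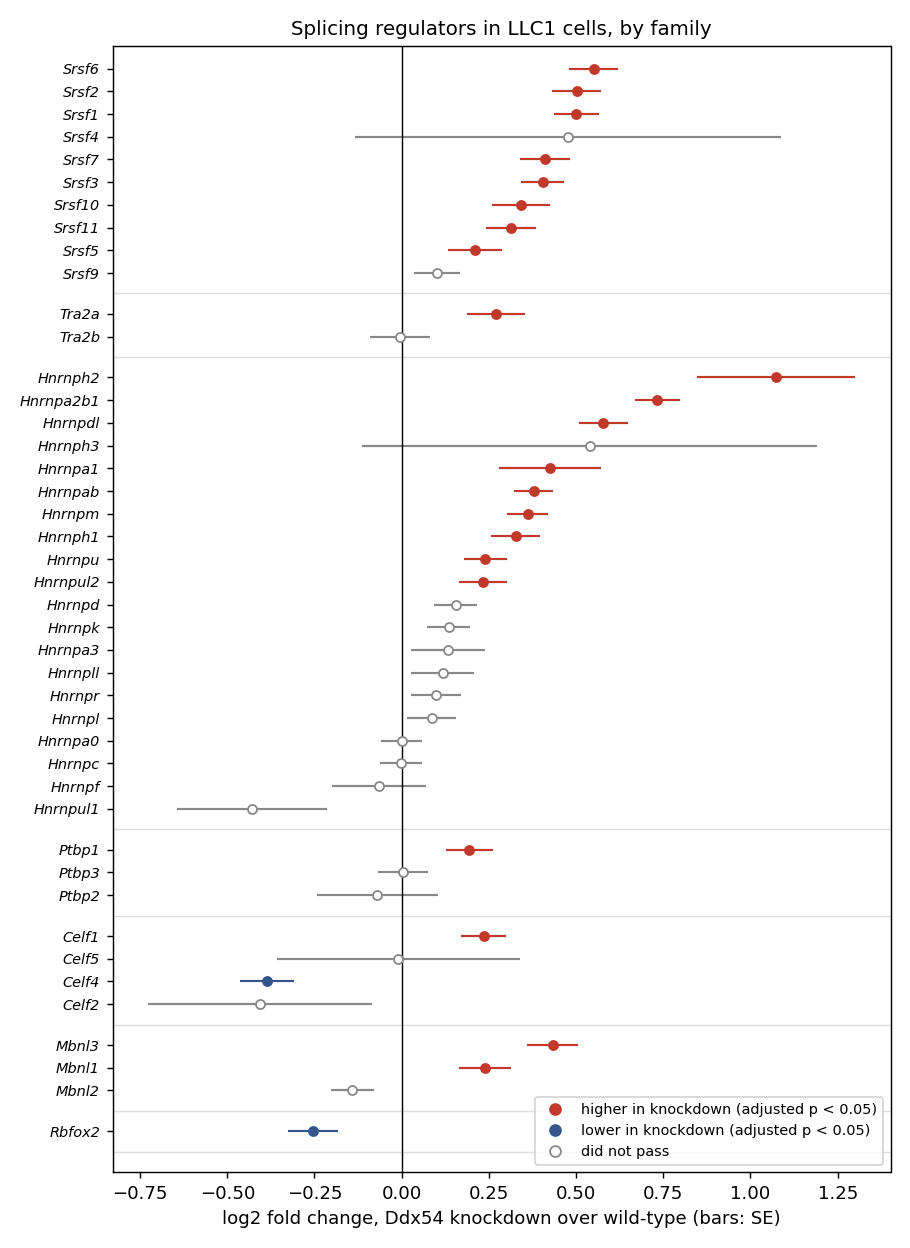
Log2 fold change of each of the 43 tested splicing regulators, Ddx54 knockdown over wild-type, with bars of 1 standard error, grouped by family. Filled points passed the test; 8 of 10 SR genes and 9 of 20 hnRNP genes lie to the right as filled points, and the filled points to the left are Celf4 and Rbfox2.

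SR protein genes were higher as a family. Of the 11, 10 were tested, 8 rose and 0 fell, leaving Srsf9 and Srsf4 short of the threshold. The share higher was 80%, beside 14.1% of all tested genes, and the share lower 0%, beside 15.3%. The median log2 fold change was 0.41. With each other setting tried, 7 or 8 were higher and 0 lower, Srsf5 being the gene that came and went. The 11 genes summed to 3010.3, 2906 and 2849 CPM in the knockdown libraries, against 2040.3, 2201, 2417 and 2251 CPM in the wild-type libraries. The knockdown mean was 131% of the wild-type mean.

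Srsf6, which like most SR proteins binds purine-rich exon sequences, had the largest rise of the SR genes that passed. It lies on chromosome 2, 162931528 to 162937121, plus strand (GRCm38). It was at 207, 214 and 230.4 CPM in the knockdown libraries, against 147, 139, 160.1 and 147 CPM in the wild-type libraries (log2 fold change 0.55, SE 0.0703, adjusted p = 1.93e-07). Srsf2, also called SC35, was at 778, 731 and 723 CPM in the knockdown libraries, against 453, 518, 605 and 526 CPM in the wild-type libraries (log2 fold change 0.50, SE 0.0695, adjusted p = 8.9e-07). Srsf1, the founding SR protein and a factor able to transform cells when overexpressed, was at 438, 408 and 424 CPM in the knockdown libraries, against 281, 287, 332 and 297 CPM in the wild-type libraries (log2 fold change 0.50, SE 0.0649, adjusted p = 2.56e-07). For these 3 genes the lowest knockdown library lay above the highest wild-type library. Wild-type replicate 3 was the highest of its group for all 3. Srsf2 has a limit, since 25.3% of its annotated exon bases are also exon of Mettl23 or Mfsd11 on the other strand, and the strand setting of the counting is not given. Mfsd11 was at 16.2 ± 4.04 CPM in knockdown and 10.9 ± 1.59 CPM in wild-type and was itself higher (log2 fold change 0.58, adjusted p = 0.0255). Mettl23 was at 9.90 ± 1.41 CPM in knockdown and 10.6 ± 1.61 CPM in wild-type and did not pass (log2 fold change -0.096, adjusted p = 0.785). Both lay far below Srsf2 in CPM, and the part of the overlap in the Srsf2 result was not tested.

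Srsf3 and Srsf7, close relatives that also act in mRNA export and in the choice of polyadenylation sites, moved by similar amounts. Srsf3 was at 326, 323 and 312 CPM in the knockdown libraries, against 230.2, 245, 249 and 244 CPM in the wild-type libraries (log2 fold change 0.40, SE 0.0626, adjusted p = 5.56e-06). Srsf7 was at 164, 170.3 and 159 CPM in the knockdown libraries, against 116, 126, 129 and 125 CPM in the wild-type libraries (log2 fold change 0.41, SE 0.0716, adjusted p = 3.29e-05). Neither gene's groups overlapped. Srsf10, which can repress splicing when dephosphorylated, was at 134, 110.5 and 123 CPM in the knockdown libraries, against 89.1, 93.1, 107 and 96.9 CPM in the wild-type libraries (log2 fold change 0.34, SE 0.0835, adjusted p = 0.00182). Srsf11 was at 555, 511 and 437 CPM in the knockdown libraries, against 361, 399.8, 416 and 435 CPM in the wild-type libraries (log2 fold change 0.31, SE 0.0716, adjusted p = 0.000928). The groups came close without overlapping for both, and for Srsf11 knockdown replicate 3 was just above the highest wild-type library. Of the 50-base words of the longest transcript, 18.3% for Srsf3 and 10.04% for Srsf10 also occur in other annotated genes. The levels and changes of Srsf3 and Srsf10 are uncertain to that extent.

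Srsf5 was the weakest call. It was at 144, 154 and 159 CPM in the knockdown libraries, against 119.8, 125, 152 and 131 CPM in the wild-type libraries (log2 fold change 0.21, SE 0.0783, adjusted p = 0.0411), and wild-type replicate 3 lay within the knockdown range. Its adjusted p was 0.126 without knockdown replicate 2, 0.176 without knockdown replicate 3, 0.135, 0.0783 and 0.0748 without wild-type replicate 1, 2 or 4, and 0.127 with the GC and length correction. The call was also lost with upper-quartile factors and with the replicate number as a block, with or without that correction. Srsf5 passed in 8 of the 17 other settings. Of the 50-base words of Srsf5, 11.2% also occur in other annotated genes. Srsf9 was at 261, 282 and 279 CPM in the knockdown libraries, against 242, 267, 265 and 248 CPM in the wild-type libraries. It did not pass (log2 fold change 0.10, SE 0.0651, adjusted p = 0.264). Srsf4 was at 1.69 to 2.03 CPM in knockdown and 0.769 to 1.96 CPM in wild-type and did not pass (log2 fold change 0.48, SE 0.611, adjusted p = 0.614), and 43.02% of its exon bases overlap Gm12992 on the other strand. Srsf12 was below the filter, with 7, 5 and 6 counts in the knockdown libraries, against 0, 1, 0 and 0 counts in the wild-type libraries. It was tested only with no low-count filter and was not among the 22 genes higher there.

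**Figure D2:**
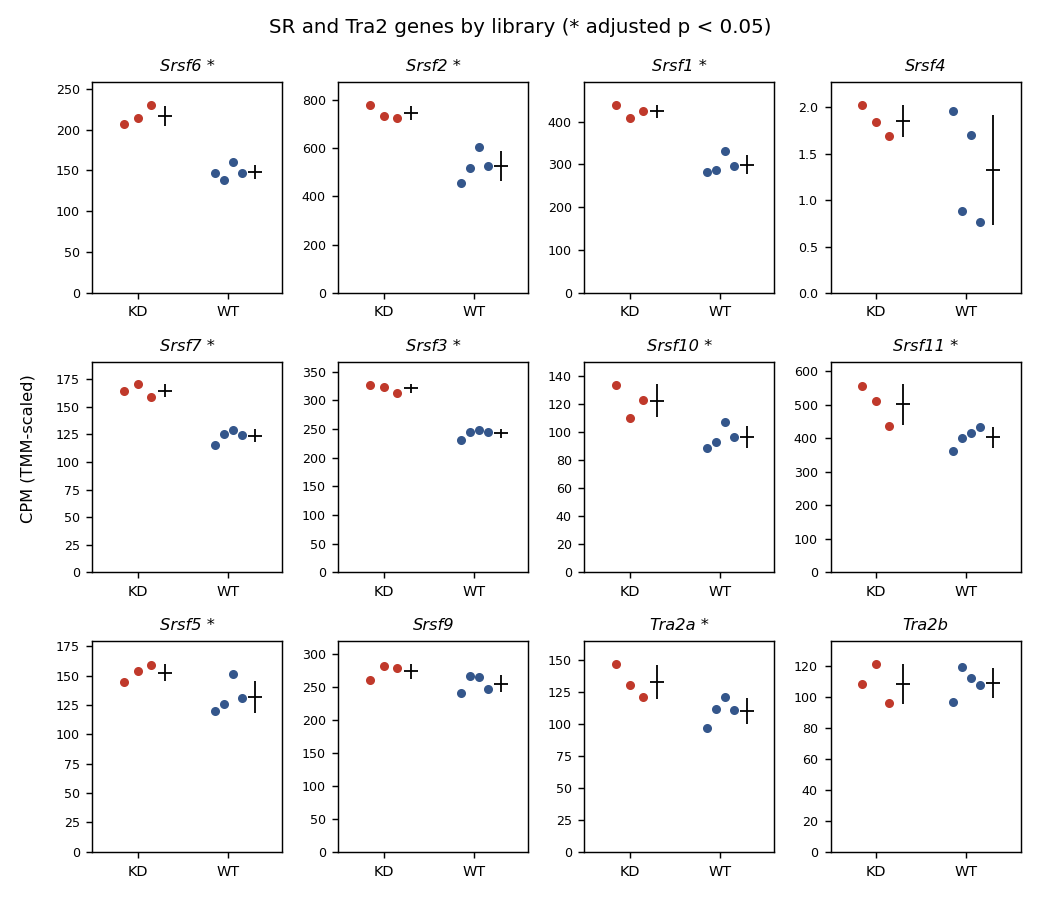
CPM of the 10 tested SR genes and of Tra2a and Tra2b, with 1 point per library, 3 knockdown (KD, red) and 4 wild-type (WT, blue), and the mean with its SD in black. Every axis starts at 0 and an asterisk marks an adjusted p under 0.05; the red points stand clear of the blue ones in Srsf6, Srsf2, Srsf1, Srsf7, Srsf3, Srsf10 and Srsf11.

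The promoters of the 3 SR genes with the largest rises that passed, of Srsf9, which did not pass, and of Hnrnpa2b1, the hnRNP gene with the smallest p-value, are printed to show what the genes that moved do and do not share in letters. Each window runs from 250 bases before to 50 after the annotated start, on the gene's own strand (RefSeq, GRCm38.p6). Capitals mark an E2F-type word (GCGGGAA), an E-box (CACGTG) or a CCAAT box (CCAAT) on either strand.
Srsf6 (chr2:162931258-162931557, plus strand): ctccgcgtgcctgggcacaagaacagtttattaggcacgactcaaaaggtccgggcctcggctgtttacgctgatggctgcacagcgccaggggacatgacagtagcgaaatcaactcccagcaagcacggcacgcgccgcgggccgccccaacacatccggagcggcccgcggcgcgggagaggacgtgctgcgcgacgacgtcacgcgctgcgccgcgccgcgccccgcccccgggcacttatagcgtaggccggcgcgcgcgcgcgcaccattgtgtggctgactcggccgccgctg
Srsf2 (chr11:116853045-116853344, minus strand): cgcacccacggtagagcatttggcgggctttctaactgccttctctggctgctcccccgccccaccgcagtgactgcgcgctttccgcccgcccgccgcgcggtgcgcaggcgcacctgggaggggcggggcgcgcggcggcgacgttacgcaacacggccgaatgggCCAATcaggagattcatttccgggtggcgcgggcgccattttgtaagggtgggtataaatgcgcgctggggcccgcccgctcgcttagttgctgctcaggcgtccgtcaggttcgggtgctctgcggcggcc
Srsf1 (chr11:88047123-88047422, plus strand): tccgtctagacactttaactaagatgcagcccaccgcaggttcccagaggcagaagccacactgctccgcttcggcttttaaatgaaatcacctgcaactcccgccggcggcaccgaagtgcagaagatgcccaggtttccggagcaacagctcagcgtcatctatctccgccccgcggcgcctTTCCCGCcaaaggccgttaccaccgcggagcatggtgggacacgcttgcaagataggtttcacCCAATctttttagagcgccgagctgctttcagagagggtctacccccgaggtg
Srsf9 (chr5:115326927-115327226, plus strand): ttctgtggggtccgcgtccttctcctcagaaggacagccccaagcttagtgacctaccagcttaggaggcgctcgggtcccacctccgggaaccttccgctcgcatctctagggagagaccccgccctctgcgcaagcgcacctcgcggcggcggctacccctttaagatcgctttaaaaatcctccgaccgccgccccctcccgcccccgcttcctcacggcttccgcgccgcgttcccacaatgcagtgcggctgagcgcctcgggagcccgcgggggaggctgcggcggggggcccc
Hnrnpa2b1 (chr6:51469845-51470144, minus strand): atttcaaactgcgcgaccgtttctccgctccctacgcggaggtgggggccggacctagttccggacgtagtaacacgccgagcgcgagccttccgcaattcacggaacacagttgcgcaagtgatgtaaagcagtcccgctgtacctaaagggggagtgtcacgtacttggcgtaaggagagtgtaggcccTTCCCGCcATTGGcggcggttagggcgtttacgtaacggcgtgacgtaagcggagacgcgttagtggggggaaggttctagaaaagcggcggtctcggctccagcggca

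Srsf1 and Hnrnpa2b1 held the E2F-type word and a CCAAT box, Srsf2 a CCAAT box alone, and Srsf6 and Srsf9 none of the 3 words. Over windows of the 43 genes found in the RefSeq table, 7 of 43 held the E2F-type word (16.3%, against 4.67% of 27025 promoters of the same length), 6 of 43 the E-box (14.0% against 7.24%) and 22 of 43 the CCAAT box (51.2% against 38.0%). The 27025 promoters were taken whether or not their genes were expressed and were not matched for G and C. These shares therefore cannot tell whether the words are enriched, which was not tested. The E2F-type word was in 4 of 21 windows of regulators that were higher and 3 of 17 of those that did not pass. The E-box was in 4 of 21 and 2 of 17, and the CCAAT box in 12 of 21 and 8 of 17. Of the SR genes that were higher, 2 of 8 held the E2F-type word, 0 of 8 the E-box and 4 of 8 the CCAAT box. None of these splits was tested. These are matches of letters, not bound sites. Overlap of these words with motifs that were not searched was not examined.

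Tra2a and Tra2b, SR-like activators that bind GA-rich exons and control each other, split: Tra2a passed and Tra2b did not, and the difference between them was not tested. Tra2a was at 147, 130.1 and 121 CPM in the knockdown libraries, against 96.3, 111, 121 and 111 CPM in the wild-type libraries (log2 fold change 0.27, SE 0.0834, adjusted p = 0.0125). The groups overlapped by a narrow margin, and the adjusted p was 0.148 without knockdown replicate 1 and 0.0589 without wild-type replicate 1. Tra2b was at 108, 121 and 95.7 CPM in the knockdown libraries, against 96.5, 119, 112 and 107 CPM in the wild-type libraries, with the groups overlapping throughout (log2 fold change -0.0046, SE 0.0865, adjusted p = 0.978).

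Part of the hnRNP genes passed as higher and the rest did not pass. All 20 were tested, 9 were higher and 0 lower, and the median log2 fold change was 0.19. The share higher was 45%, beside 14.1% of all tested genes, and the share lower 0%, beside 15.3%. With each other setting tried, 7 to 10 were higher and 0 lower. The 20 genes summed to 7106, 7298 and 7412 CPM in the knockdown libraries, against 6342, 6040.5, 6304 and 6132 CPM in the wild-type libraries, a mean of 117% of wild-type.

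Hnrnpa2b1, a core hnRNP protein that also takes part in RNA transport, was at 328, 341 and 321 CPM in the knockdown libraries, against 189.6, 193, 213 and 199 CPM in the wild-type libraries (log2 fold change 0.73, SE 0.0646, adjusted p = 1.11e-10). It lies on chromosome 6, 51460932 to 51469894, minus strand (GRCm38). Its relative Hnrnpa1, the classical antagonist of Srsf1, was at 34.05, 43.7 and 38.1 CPM in the knockdown libraries, against 28.8, 29.1, 36.8 and 20.4 CPM in the wild-type libraries (log2 fold change 0.43, SE 0.147, adjusted p = 0.0267). The Hnrnpa1 groups overlapped, and the call was lost without knockdown replicate 2 or 3 or wild-type replicate 4 (adjusted p = 0.186, 0.064 and 0.126). Of the 50-base words of its longest transcript, 28.3% also occur in other annotated genes, 17 of them pseudogenes, so its level and its change are uncertain. Hnrnpa3 (0.13, adjusted p = 0.389), with 28.2% of such words, did not pass. Hnrnpa0, an intronless member, averaged 875 ± 6.81 CPM in knockdown and 875 ± 47.6 CPM in wild-type (SD, n = 3 and 4) and did not pass (log2 fold change 0.00, SE 0.0585, adjusted p = 0.9999).

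The Hnrnpd group, which binds AU-rich elements and acts in mRNA decay as well as splicing, was led by Hnrnpdl at 417, 394 and 401 CPM in the knockdown libraries, against 244, 257, 314 and 268 CPM in the wild-type libraries (log2 fold change 0.58, SE 0.0703, adjusted p = 8.13e-08). Hnrnpab, a related protein, was at 874, 872 and 907 CPM in the knockdown libraries, against 689.6, 668, 694 and 668 CPM in the wild-type libraries (log2 fold change 0.38, SE 0.0566, adjusted p = 3.04e-06). Neither overlapped between groups. Of the exon bases of Hnrnpab, 29.1% overlap Phykpl on the other strand, which was at 10.1 ± 0.902 CPM in knockdown and 11.5 ± 3.15 CPM in wild-type. Hnrnpd, also called AUF1, was at 473, 447 and 485 CPM in the knockdown libraries, against 424, 391, 425 and 442 CPM in the wild-type libraries. Of the regulators that did not pass, it came nearest to the threshold (log2 fold change 0.16, SE 0.0615, adjusted p = 0.0542). Its groups did not overlap, and it passed with DESeq2 (adjusted p = 0.0325), with limma-voom (0.0484), with the stricter count filter (0.0484) and without wild-type replicate 4 (0.033). With the GC and length correction its log2 fold change was 0.053 (adjusted p = 0.531).

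Among the H and F proteins, which bind G-runs, Hnrnph2 was at 12.6, 10.4 and 13.00 CPM in the knockdown libraries, against 4.96, 5.77, 6.47 and 5.62 CPM in the wild-type libraries. This was the largest log2 fold change of the 43 tested regulators (log2 fold change 1.07, SE 0.227, adjusted p = 0.000403), at a low level and with 18.2% of its 50-base words found in another annotated gene, a pseudogene. Hnrnph1, its more abundant paralog, was at 161, 160.3 and 168 CPM in the knockdown libraries, against 125, 125, 134 and 136 CPM in the wild-type libraries (log2 fold change 0.33, SE 0.0709, adjusted p = 0.00052). With the GC and length correction Hnrnph1 still passed at a log2 fold change of 0.19 (adjusted p = 0.0301). Neither gene's groups overlapped. Hnrnpf did not pass (-0.066, adjusted p = 0.765), and 48.98% of its words occur elsewhere. Hnrnph3 stayed under 3 CPM in every library and did not pass (0.54, adjusted p = 0.592).

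Hnrnpm, which has been tied to mesenchymal splicing programmes, was at 952, 1005 and 1023 CPM in the knockdown libraries, against 774, 761, 811 and 749 CPM in the wild-type libraries (log2 fold change 0.36, SE 0.0575, adjusted p = 8.59e-06). Of its exon bases, 14.7% are shared with March2, which was at 20.2 ± 2.78 CPM in knockdown and 20.9 ± 1.85 CPM in wild-type. Hnrnpu, a nuclear scaffold protein, was at 960.0, 1009.5 and 1033 CPM in the knockdown libraries, against 937, 777, 841 and 837 CPM in the wild-type libraries (log2 fold change 0.24, SE 0.0618, adjusted p = 0.00305). Hnrnpul2 was at 193, 184 and 189 CPM in the knockdown libraries, against 155, 163, 157 and 167 CPM in the wild-type libraries (log2 fold change 0.23, SE 0.0678, adjusted p = 0.00836). The groups of these 3 genes did not overlap, and for Hnrnpu the gap was smallest relative to its level, with wild-type replicate 1 just under knockdown replicate 1. Hnrnpu also lost its call with the GC and length correction (log2 fold change 0.093, adjusted p = 0.225).

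The remaining hnRNP genes did not pass. Hnrnpk, which binds C-rich stretches in RNA and DNA, was at 752, 816 and 825 CPM in the knockdown libraries, against 747, 736, 757 and 667 CPM in the wild-type libraries, with the groups overlapping (log2 fold change 0.13, SE 0.0606, adjusted p = 0.0957), and 34.5% of its words occur in other genes. Hnrnpc (-0.003, adjusted p = 0.979), which binds U-rich stretches, Hnrnpr (0.10, adjusted p = 0.338), Hnrnpl (0.086, adjusted p = 0.392) and Hnrnpll (0.12, adjusted p = 0.359) stayed within 0.2 log2 units of wild-type. Hnrnpul1 had the most negative value of all 43 and did not pass (-0.43, adjusted p = 0.138), at 6.83 to 10.7 CPM in knockdown and 10.7 to 12.6 CPM in wild-type. A value that misses the threshold does not show that a gene was unaltered.

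**Figure D3:**
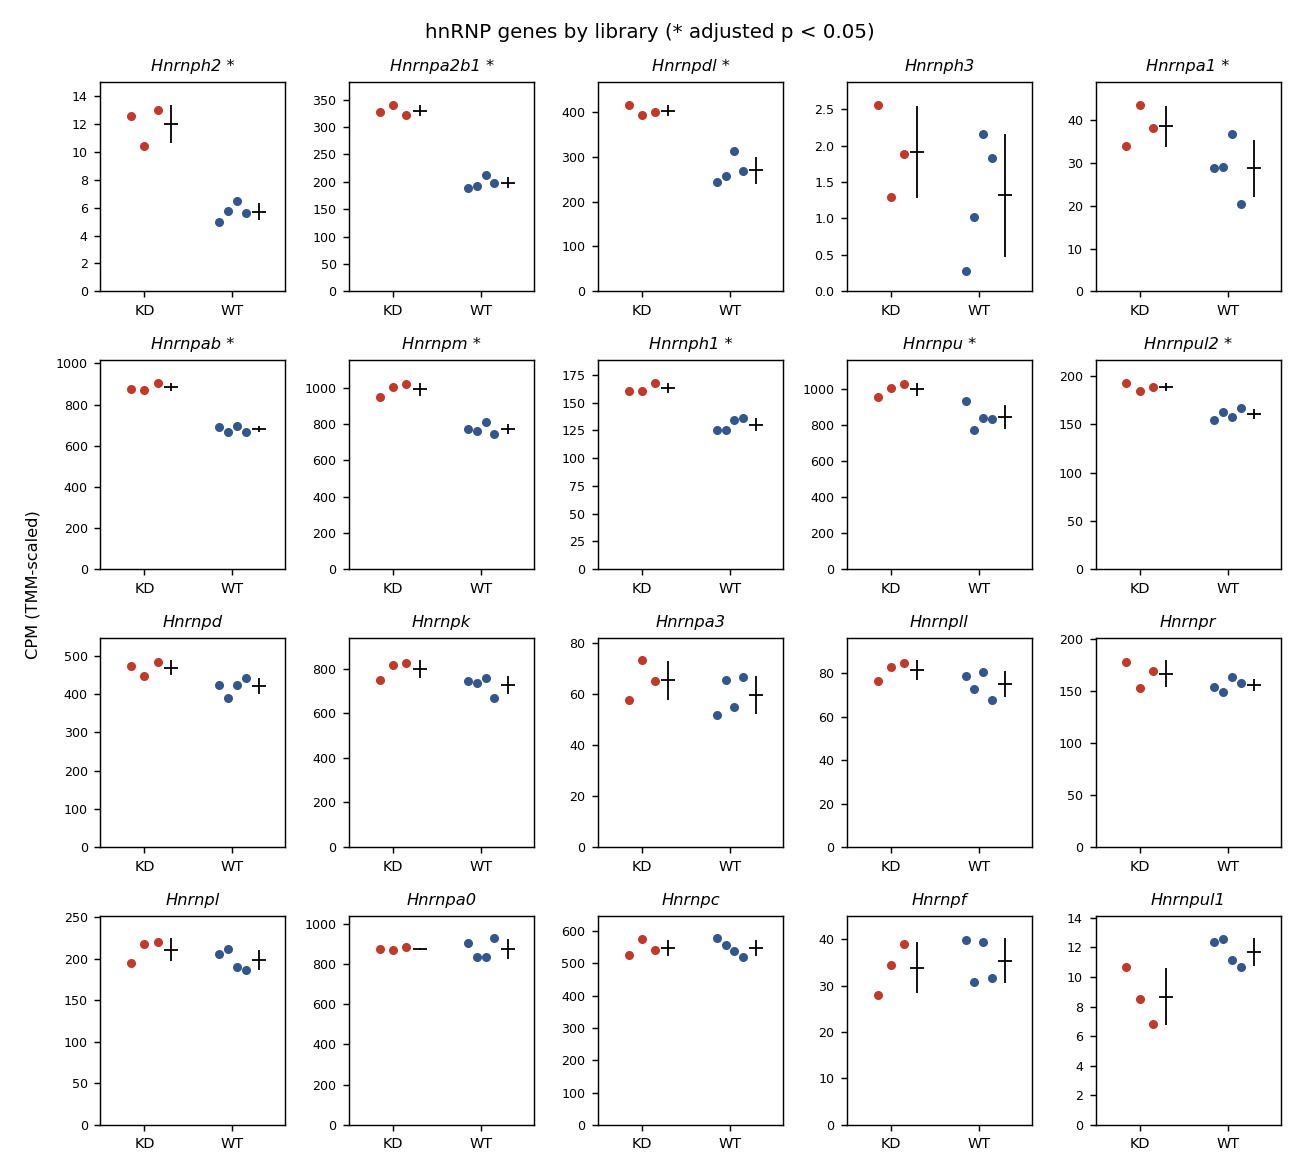
CPM of the 20 hnRNP genes in each of 3 knockdown (KD, red) and 4 wild-type (WT, blue) libraries, with the mean and SD in black, axes from 0 and an asterisk where the adjusted p was under 0.05. Genes run from the most positive log2 fold change, Hnrnph2, to the most negative, Hnrnpul1; red and blue points separate in Hnrnpa2b1, Hnrnpdl, Hnrnpab and Hnrnpm and mix in Hnrnpa0 and Hnrnpc.

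Among the Ptbp, Mbnl, Celf and Rbfox genes, 4 of the 11 tested rose, namely Ptbp1, Mbnl1, Mbnl3 and Celf1. Another 2 of the 11, Celf4 and Rbfox2, fell. Over all tested genes 14.1% were higher and 15.3% lower, so the count that fell is near the background. In the Ptbp family, which represses neuronal exons, Ptbp1 was at 208, 189.5 and 193 CPM in the knockdown libraries, against 167, 176, 175 and 170.1 CPM in the wild-type libraries (log2 fold change 0.19, SE 0.0676, adjusted p = 0.0276). The groups did not overlap, but the adjusted p was 0.161 and 0.0606 without knockdown replicate 1 or 3 and 0.0666 without wild-type replicate 1, and 20.7% of its exon bases overlap genes on the other strand. Ptbp2, the paralog that Ptbp1 keeps low outside neurons, was at 17.8, 19.5 and 15.1 CPM in the knockdown libraries, against 13.6, 20.2, 20.4 and 19.2 CPM in the wild-type libraries (log2 fold change -0.069, SE 0.173, adjusted p = 0.81). Wild-type replicate 1 was the lowest library of all, and the groups overlapped. Ptbp3 did not pass (log2 fold change 0.0043, adjusted p = 0.975). Per kilobase of exon, Ptbp1 was at 41.5 ± 2.06 CPM and Ptbp2 at 1.90 ± 0.242 CPM in knockdown, and in wild-type Ptbp1 was at 36.3 ± 0.899 CPM and Ptbp2 at 2.002 ± 0.349 CPM.

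Mbnl proteins bind YGCY-type sites and drive adult splicing patterns in muscle. Mbnl3, the member known to hold back muscle differentiation, was at 295, 318 and 346 CPM in the knockdown libraries, against 262, 216, 219 and 250.1 CPM in the wild-type libraries (log2 fold change 0.43, SE 0.0724, adjusted p = 1.8e-05). Mbnl1 was at 146, 157 and 158 CPM in the knockdown libraries, against 137, 118, 136 and 129.9 CPM in the wild-type libraries (log2 fold change 0.24, SE 0.0737, adjusted p = 0.0127). Its call was lost without knockdown replicate 2 or 3 (adjusted p = 0.0652 and 0.071) and with the GC and length correction (log2 fold change 0.13, adjusted p = 0.166). Mbnl2 was at 283, 282 and 272 CPM in the knockdown libraries, against 307, 301, 304 and 319 CPM in the wild-type libraries, with every knockdown library below every wild-type library, and missed the threshold (log2 fold change -0.14, SE 0.0621, adjusted p = 0.0846). It passed as lower with DESeq2 (adjusted p = 0.0408) and with the GC and length correction (0.0413). The difference between the Mbnl genes was not tested.

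Celf proteins oppose Mbnl at many muscle exons and also act on mRNA decay. Celf1, the widely expressed member, was at 380.2, 379 and 371 CPM in the knockdown libraries, against 291, 312, 343 and 334 CPM in the wild-type libraries (log2 fold change 0.24, SE 0.0643, adjusted p = 0.00507). Celf4, known mainly from neurons, fell, and it was at 130.2, 134 and 124 CPM in the knockdown libraries, against 165, 155, 193 and 164 CPM in the wild-type libraries (log2 fold change -0.39, SE 0.0770, adjusted p = 0.000195). It lies on chromosome 18, 25477632 to 25754157, minus strand (GRCm38). The groups did not overlap for either gene, and Celf4 passed in all 17 other settings. Celf4 was well expressed while neuronal markers were not. Tubb3, Map2, Snap25 and Rbfox3 summed to 3.64 to 3.97 CPM in knockdown and 5.12 to 7.69 CPM in wild-type, and the part of this in the Celf4 result was not tested. Celf2 (-0.41, adjusted p = 0.376) and Celf5 (-0.0091, adjusted p = 0.989) stayed under 7 CPM in every library and did not pass. Celf3 had at most 13 counts and Celf6 at most 5 counts in a library, and neither was tested.

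Rbfox2, the broadly expressed member of a family that favours an exon when bound downstream of it, was at 176, 188 and 197 CPM in the knockdown libraries, against 235, 198, 231 and 227 CPM in the wild-type libraries (log2 fold change -0.25, SE 0.0712, adjusted p = 0.00609). The groups did not overlap, with knockdown replicate 3 and wild-type replicate 2 less than 1 CPM apart. Without knockdown replicate 1 the call was lost (log2 fold change -0.21, adjusted p = 0.0629), which left Celf4 as the single gene that was lower. Rbfox1 had no count in any library, and Rbfox3, the neuronal nuclear antigen NeuN, had 8 counts in wild-type replicate 4 and none elsewhere.

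**Figure D4:**
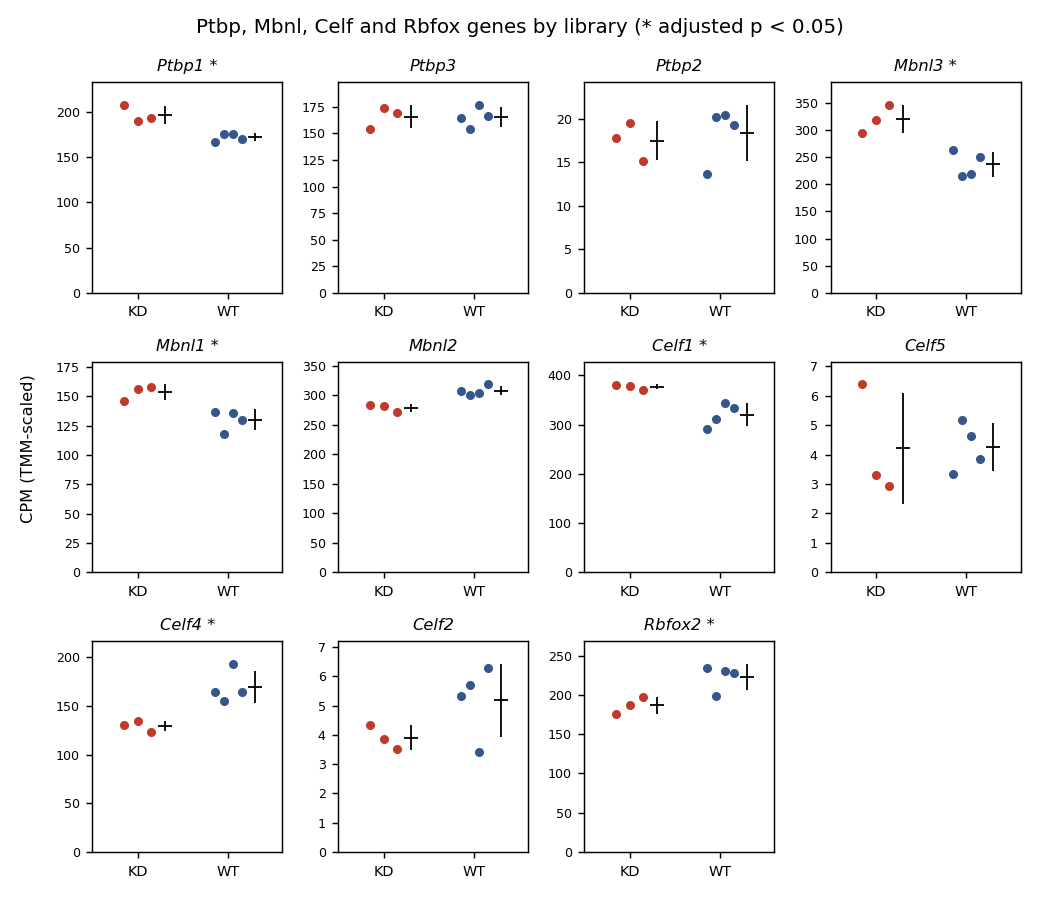
CPM of the 11 tested Ptbp, Mbnl, Celf and Rbfox genes in each of 3 knockdown (KD, red) and 4 wild-type (WT, blue) libraries, with the mean and SD in black, axes from 0 and an asterisk where the adjusted p was under 0.05. Red points lie above blue in Ptbp1, Mbnl3, Mbnl1 and Celf1 and below in Mbnl2, Celf4 and Rbfox2.

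Set against exon length, levels spanned a wide range. Exon length here is the union of all annotated exons of a gene, so the order of genes depends on the annotation. For Hnrnpa0 the union and the longest transcript are both 2678 bases. The union is 2782 bases against a longest transcript of 2370 for Hnrnpab, and 2958 against 1899 for Srsf2. The order by length of the longest transcript was not examined. In CPM per kilobase of exon, Hnrnpa0 was highest in both groups, at 327 ± 2.54 in knockdown and 327 ± 17.8 in wild-type (SD, n = 3 and 4). Hnrnpab followed at 318 ± 7.02 in knockdown and 244 ± 4.99 in wild-type, and these genes differed by less than the sum of their SDs in knockdown and by more in wild-type. Srsf2 was the most abundant SR gene at 252 ± 10.1 in knockdown and 178 ± 21.1 in wild-type. Srsf9 came next at 166 ± 6.92 in knockdown and 154 ± 7.71 in wild-type, so that Srsf2 and Srsf9 differed by more than the sum of their SDs in knockdown and by less than the sum of their SDs in wild-type. By this length, Hnrnpc, Hnrnpm and Hnrnpk did not differ beyond their spread in knockdown, at 127 ± 5.73, 125 ± 4.61 and 123 ± 6.16. Their exon unions are 4322, 7956 and 6466 bases, and their longest transcripts 2847, 3934 and 2970 bases. The SDs do not cover the choice of length. In wild-type these genes were at 127 ± 5.64, 97.2 ± 3.40 and 112 ± 6.27. Hnrnpa1, usually counted among the most abundant hnRNPs, was at 12.2 ± 1.53 in knockdown and 9.13 ± 2.12 in wild-type. How reads shared between a gene and its copies were counted is not given, so levels of genes with copies are uncertain.

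**Figure D5:**
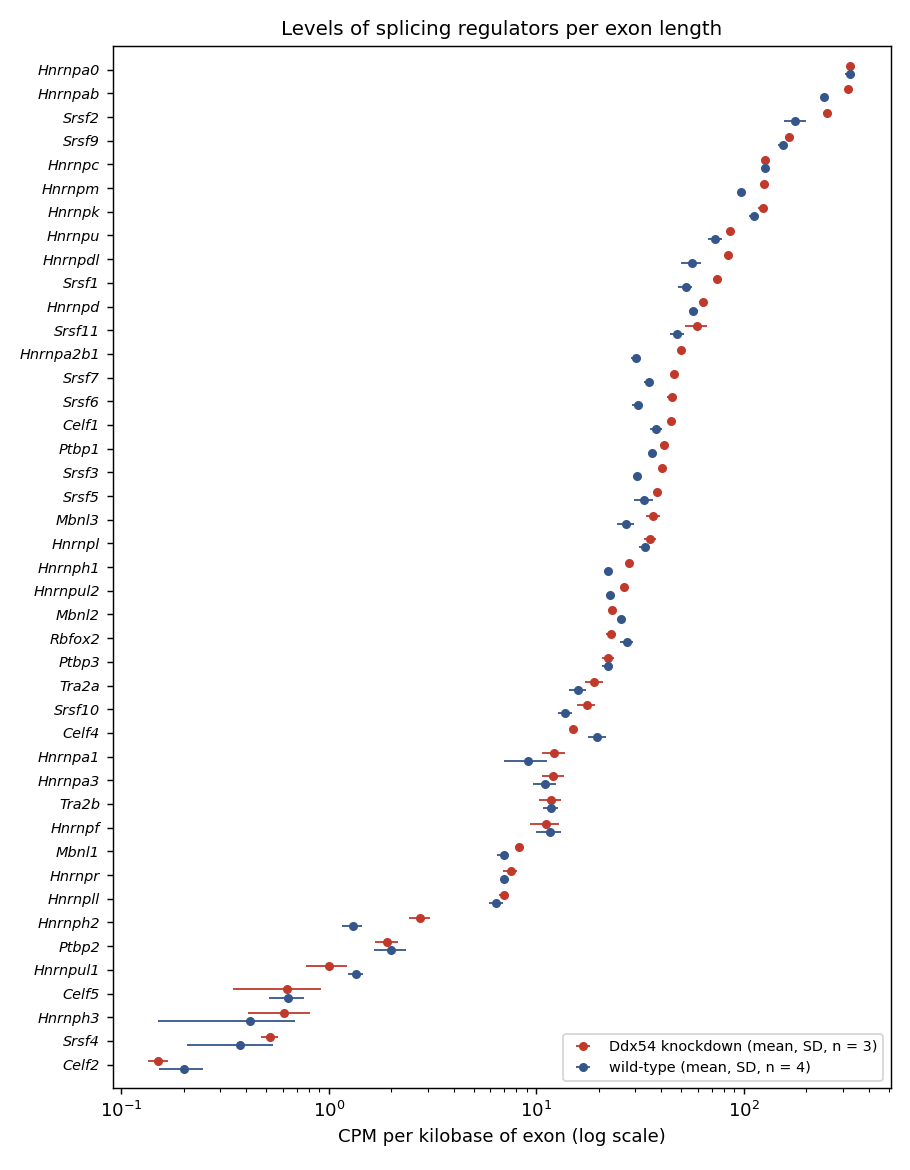
CPM per kilobase of annotated exon, on a log axis, for the 43 splicing regulators at or above 0.1 in both groups, as mean with SD of 3 knockdown (red, upper) and 4 wild-type (blue, lower) libraries. Genes run from Hnrnpa0 at the top to Celf2 at the bottom; red lies right of blue at Hnrnpab and Srsf2, and both colours coincide at Hnrnpa0 and Hnrnpc.

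Genes with and without close copies were counted separately. Of the 9 tested genes with at least 10% of their 50-base words in other genes, 5 were higher and 0 lower, with a median log2 fold change of 0.21. Of the 34 with fewer, 17 were higher and 2 lower, with a median of 0.23. By share, 55.6% and 50% were higher, beside 14.1% of all tested genes, and 0% and 5.88% lower, beside 15.3%. The difference between these classes was not tested. An isoform annotated as a target of nonsense-mediated decay is listed for 27 of the 48 genes (56.2%) and for 9 of the 11 SR genes, against 28.9% of 11149 tested genes found in the annotation. Regulators with such an isoform were higher in 13 of 26 cases and those without it in 9 of 17. Over all tested genes, 16.1% of those with such an isoform and 13.1% of those without were higher.

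Genes that act with these regulators were counted in the same fit. Of 10 kinases and import factors of SR proteins, 9 were tested, 2 were higher and 1 lower, and the median log2 fold change was 0.11. These were 22.2% and 11.1% of those tested, beside 14.1% higher and 15.3% lower over all tested genes, so the list lay near the background. Prpf4b, a kinase of the spliceosome, was at 320.2, 316 and 288 CPM in the knockdown libraries, against 189.8, 181, 196 and 209.7 CPM in the wild-type libraries (log2 fold change 0.67, SE 0.0674, adjusted p = 1.76e-09). The main cytoplasmic SR kinases went opposite ways, Srpk1 at 176 ± 3.60 CPM in knockdown and 132 ± 4.18 CPM in wild-type (log2 fold change 0.42, SE 0.0693, adjusted p = 1.41e-05) and Srpk2 at 130.1 ± 11.4 CPM in knockdown and 174 ± 3.94 CPM in wild-type (log2 fold change -0.42, SE 0.0734, adjusted p = 3.45e-05). None of the Clk kinases, which act on SR proteins in the nucleus, passed.

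Of 49 other splicing regulators, 47 symbols were in the table and 39 were tested, of which 17 were higher and 2 lower (median log2 fold change 0.17). By share, 43.6% were higher and 5.13% lower, beside the same 14.1% and 15.3%. Pnn, a partner of SR proteins at the exon junction complex, was at 215 ± 18.1 CPM in knockdown and 130.2 ± 14.00 CPM in wild-type (log2 fold change 0.72, SE 0.0794, adjusted p = 1.01e-08). Tardbp, which encodes TDP-43, was at 282 ± 6.53 CPM in knockdown and 180.4 ± 21.5 CPM in wild-type (log2 fold change 0.64, SE 0.0739, adjusted p = 2.52e-08). Son, a core protein of nuclear speckles, was at 505 ± 30.1 CPM in knockdown and 328 ± 46.9 CPM in wild-type (log2 fold change 0.62, SE 0.0823, adjusted p = 2.76e-06). Pcbp3, a poly(C)-binding protein, was lower at 8.94 ± 1.39 CPM in knockdown and 15.1 ± 3.38 CPM in wild-type (log2 fold change -0.76, SE 0.210, adjusted p = 0.00562). Of 17 genes of nonsense-mediated decay and the exon junction complex, all tested, 5 were higher and 1 lower (median 0.042). Of those tested, 29.4% were higher, beside 14.1% of all tested genes, and 5.88% were lower, beside 15.3%. Smg6, the endonuclease of the pathway, fell to 58.8 ± 1.97 CPM in knockdown, against 105 ± 2.098 CPM in wild-type (log2 fold change -0.84, SE 0.0842, adjusted p = 1.56e-09). The central helicase Upf1 (0.46, adjusted p = 2.34e-05), its phosphatase adaptor Smg5 (0.51, adjusted p = 0.00302) and Magoh of the exon junction complex (0.35, adjusted p = 0.00208) were higher.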

How the data were processed

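Counts per gene symbol for 7 bulk RNA-seq libraries of LLC1 cells were used as deposited by the authors, 3 knockdown and 4 wild-type. Trimmomatic, STAR, HTSeq and the build mm10 are listed per the submitters' processing notes, and roles, versions, annotation, strand setting and handling of multi-mapped reads are not stated there. The table has 0 further sample columns. Counts were tested with edgeR 4.0.16 in R 4.3.3, with filterByExpr, TMM factors, a robust quasi-likelihood fit of knockdown against wild-type with no covariate, and Benjamini-Hochberg adjustment over 11594 genes. Standard errors were taken as the fold change on the log2 scale over the root of the F statistic. Depth was 14987324 to 18673395 counts per library; each gene's SE reflects both its counts and the spread between libraries.

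Exon length, transcript GC, isoform types and 50-base words shared with other genes come from GENCODE M21 (GRCm38, the assembly called mm10), matched by symbol for 23333 of 24419 symbols and all 48 splicing regulators; promoters come from RefSeq (43 of 48). The members and gene lists were chosen with earlier results of these data known. Values are given in every library for regulators with adjusted p under 0.05 and for 12 fixed genes, other regulators by value or range, and from each related list up to 4 genes past the threshold with the largest change. Alternatives were RLE and upper-quartile factors, no filter, at least 50 counts in 3 libraries, limma-voom (limma 3.58.1), DESeq2 1.42.0, removal of Rn45s, the replicate number as a block, a loess correction for GC content and length, that correction with the block, and leaving out each library. No pair of libraries of a group agreed within sampling noise (chi-square per degree of freedom 8.53 to 16.9). The test was run on simulated counts first.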

Additional observations from a re-analysis of the deposited data

How the results depend on the processing

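Over the 17 alternatives, 16 of the 24 regulators that passed stayed past the threshold in each one, and none of the 24 changed direction. Leaving out a library gave 18 to 22 higher and 1 to 2 lower, the single lower gene coming without knockdown replicate 1, and a median log2 fold change of 0.19 to 0.23. The median moved to 0.15 with the GC and length correction and 0.15 with that correction and the block, against 0.23. Tra2b and Ptbp2 changed sign without passing in any setting: Tra2b was 0.0029 with limma-voom and -0.095 to 0.075 without single libraries, and Ptbp2 -0.19 to 0.024 without single libraries. With the GC and length correction Tra2b was -0.091 and Ptbp2 -0.25, and with the block added -0.10 and -0.21, against -0.0046 and -0.069. Hnrnpk, which did not pass, was 0.081 with both. The cause was not tested. Replicate numbers are shared by both groups. Same-numbered libraries did not deviate together (correlations -0.037, -0.021 and -0.014), and no knockdown library correlated best with its own number. Deviations were taken within 3 libraries of each group, so these correlations gave no sign of pairing but cannot exclude it. With the replicate number as a block, which sets wild-type replicate 4 aside, 18 regulators were higher and 2 lower; Hnrnpa1, Ptbp1, Srsf5 and Tra2a lost their calls. With the block and the correction together, 16 were higher and 2 lower, Celf1, Hnrnpu and Mbnl1 being lost as well while Ptbp1 passed. Of the other splicing regulators, 4 were lower with the correction, with or without the block, and 1 without knockdown replicate 2, against 2.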

Other observations

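Of 47 quantities searched in the 4 wild-type libraries (the CPM of the 43 tested splicing regulators, their summed CPM, Ddx54, the total count and the Rn45s share), Dixon's test found 0 with an extreme library, where chance gives about 2.35.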
